A study of Mus musculus with 6 samples.

Results

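The genes described here are the autophagy machinery, chosen by symbol: every gene of the deposited table whose symbol begins with Atg, Ulk, Map1lc3, Gabarap or Wipi in the form used for autophagy genes, plus 13 named genes of the same pathway. This gave 41 of the 13026 genes in the table, 28 by the pattern and 13 by name, and all 41 passed the filter on low values (a mean of at least 0.5 FPKM over the libraries). The rule uses symbols and no measured value, but it was set with earlier results of these data known. One of them, Atg4a-ps, carries the name of a pseudogene of Atg4a and is described beside it.

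Autophagy delivers cytoplasm, protein aggregates and damaged organelles to the lysosome inside a double membrane, the autophagosome. A kinase complex around ULK1 starts the process, a lipid kinase complex around BECN1 marks the site of membrane growth, and a pair of ubiquitin-like conjugation systems attaches proteins of the ATG8 family (LC3 and GABARAP) to the membrane. Cargo receptors such as p62, encoded by Sqstm1, bind both the cargo and the ATG8 proteins. In the kidney the pathway is known mainly from the proximal tubule, where it is active after ischemia and protects tubular cells.

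The study compared kidneys of LIGHT+/+ (wild type) and LIGHT-/- (knockout) adult male mice on a C57BL/6 J background, with 3 libraries per genotype. LIGHT is the cytokine TNFSF14, and its deletion is not stated to be limited to a cell type. Both genotypes underwent bilateral renal ischemia for 32 min and reperfusion for 24 h, so differences from uninjured kidney cannot be read from these data. Levels are FPKM, which are scaled for transcript length and library size. Read depth is unknown. Whether each library came from a different mouse is not said in the labels, and the spread that p-values measure may be technical.

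Markers of the labelled tissue were present, with all 8 proximal tubule, 5 thick ascending limb and distal tubule, 8 collecting duct and 5 podocyte markers among the genes tested, while 0 of 6 lymphocyte markers were. Knockout library 3 was unlike the other 5. Its correlation with the other libraries across all genes tested was 0.934 to 0.956, against 0.976 to 0.989 among the other 5. It held the lowest value of the series for 8 of 10 injured tubule markers and the highest for 7 of 8 proximal tubule markers. Many of the results that rest on it are given with and without it.

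No autophagy gene was called different between the genotypes. None of the 41 passed the test in either direction (limma on log2(FPKM + 1), adjusted p under 0.05 over all genes tested), where 0.117% of all 12836 genes tested did, 0.0234% higher and 0.0935% lower. At an unadjusted p under 0.05 there were 3 members, Gabarapl1 on the higher side and Atg4a and Atg7 on the lower side, and 8.08% of all genes tested were at that level, 4.34% higher and 3.74% lower. The smallest adjusted p of any member was 0.592. Fold changes and fitted changes are given on the log2 scale throughout, knockout minus wild type, except values written as "-fold". In the knockout 21 members were higher and 20 lower by the fitted fold change, and 47.9% of all genes tested were higher. The median member had a log2 fold change of 0.01, against -0.01 over all genes tested, and the median size of the change without regard to sign was 0.09, against 0.13. For 11 members the values of the 2 genotypes did not overlap, where 16.6% of all genes tested did not, 6 of them higher in the knockout (7.76% of all genes) and 5 lower (8.8%).

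**Figure D1:**
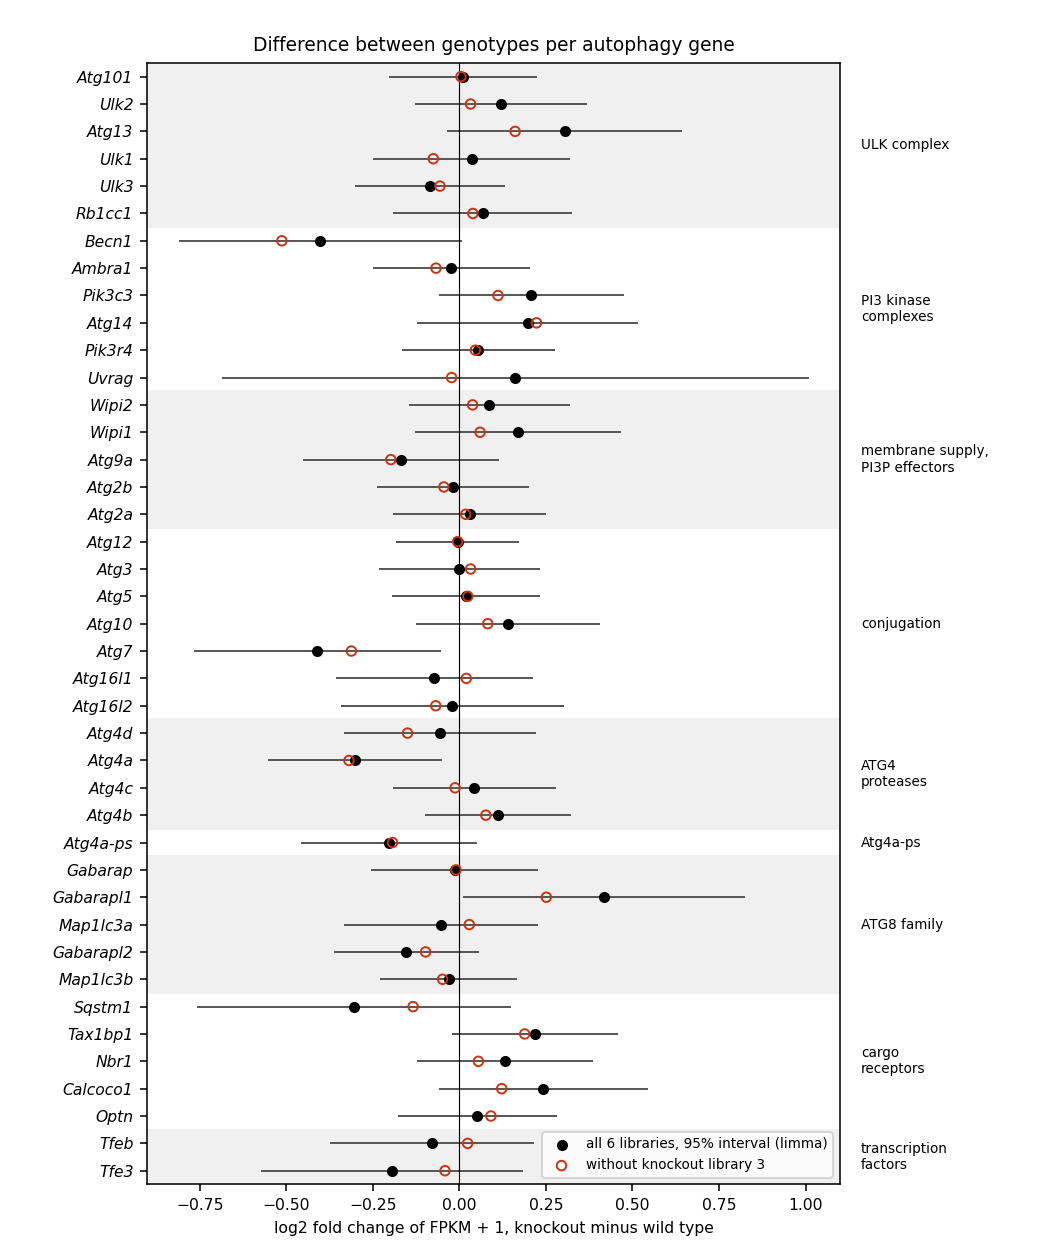
Fitted log2 fold change of FPKM + 1, knockout minus wild type (x axis), for each of 41 autophagy genes (y axis, by role). Black points use all 6 libraries and bars are 95% intervals from limma; open red circles leave out knockout library 3. The points lie between -0.41 (Atg7) and 0.42 (Gabarapl1), and no gene passed the adjusted threshold of 0.05.

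The median coefficient of variation (SD as a percent of the mean) was 6.68% in wild type and 9.65% in knockout, against 11.0% and 14.3% over all genes tested. The median level of the members was 7.80 FPKM and that of all genes tested 6.99 FPKM. Of the 41 members 12 share more than 5% of their 31-base words, counted on either strand, with other genes. Another gene of the table overlaps 7 members, in each case on the opposite strand. The steadiest member was Atg12, the ubiquitin-like protein joined to ATG5. It stood at 26.4, 26.5 and 26.7 FPKM across wild type and 26.2, 26.7 and 26.4 across knockout, a highest value only 1.02 times the lowest. The least steady was Uvrag, which ranged 2.74-fold. Knockout library 3 held the highest or the lowest of the 6 values in 24 of the 41 members, as it did in 60.1% of all genes tested. It was the highest in 16 members (29.8% of all genes) and the lowest in 8 (30.3% of all genes).

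**Figure D2:**
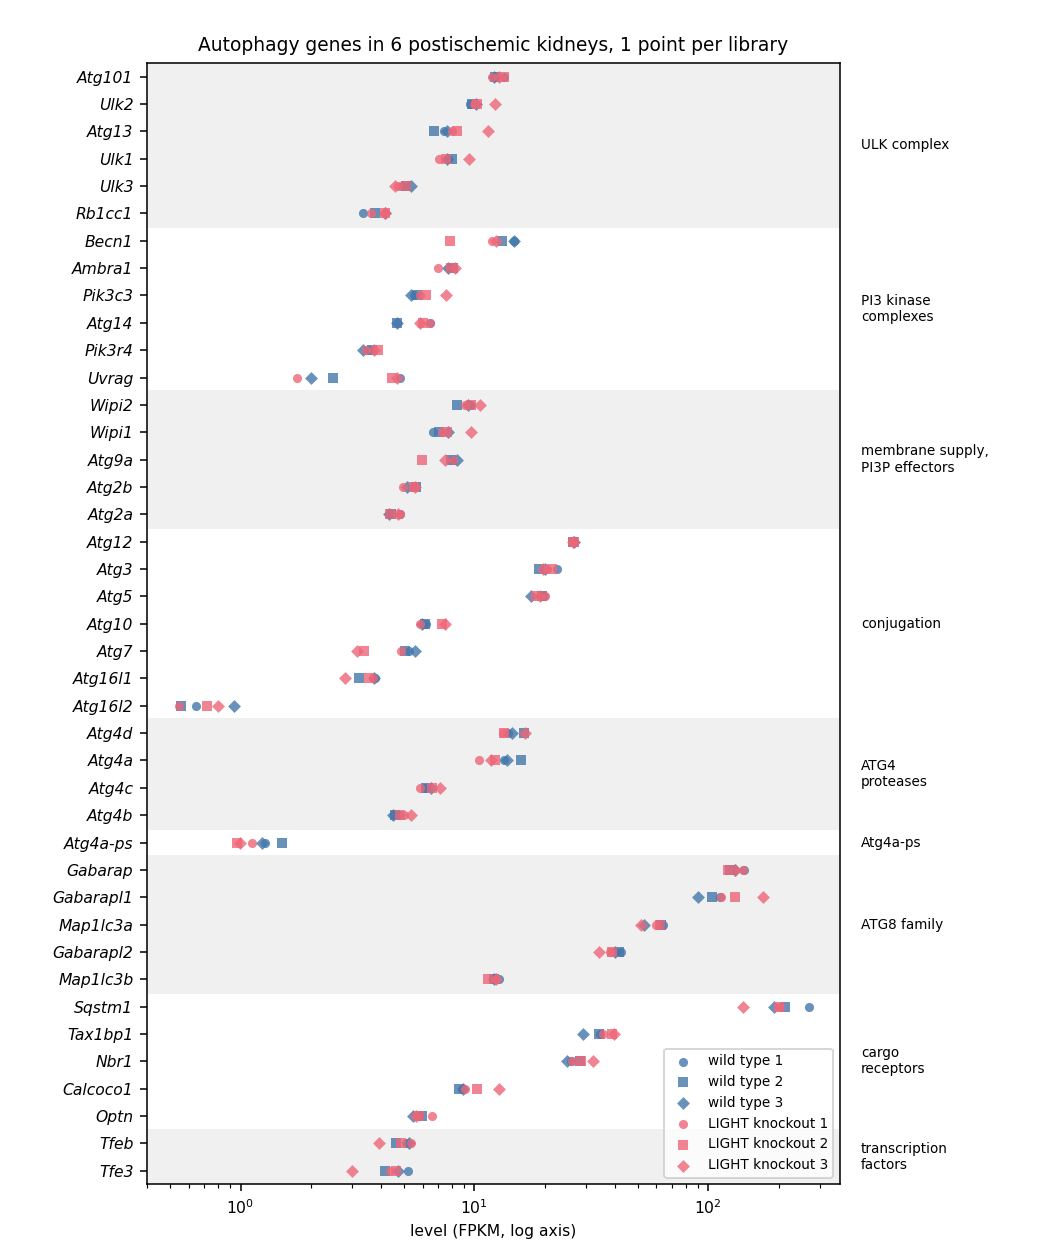
Level of each of 41 autophagy genes in FPKM (x axis, log scale), by role (y axis). Blue marks are wild type and red marks knockout libraries, with circle, square and diamond for libraries 1, 2 and 3. Sqstm1, Gabarap and Gabarapl1 lie above 90 FPKM in every library, and Atg16l2 below 1.

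The initiation complex ranged from 3.34 FPKM (Rb1cc1, wild type library 1) to 13.4 FPKM (Atg101, knockout library 2). It consists of the kinases ULK1 and ULK2, the scaffolds ATG13 and RB1CC1 (FIP200) and the small subunit ATG101, and ULK3 is a related kinase. Of these 6 genes, 5 were higher in the knockout (4 without knockout library 3) and 1, Ulk3, was lower, with none past the threshold. Atg13, which links the kinases to RB1CC1, stood at 7.43, 6.69 and 7.65 FPKM across wild type and 8.0, 8.45 and 11.4 across knockout. Its values did not overlap, and knockout library 3 lay highest. Means were 7.26 ± 0.50 and 9.29 ± 1.86 FPKM (SD, n = 3 per genotype), and the fitted log2 change was 0.30 ± 0.14 (SE, limma adjusted p = 0.595), and 0.16 without knockout library 3.

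Ulk1, the main initiating kinase in most tissues, stood at 7.72, 8.0 and 7.63 FPKM across wild type and 7.08, 7.59 and 9.49 across knockout. The genotypes overlapped, and the fold change turned from 0.04 to -0.08 without knockout library 3. Ulk2, its close relative, was the more abundant of the pair in every library, at 9.62, 9.79 and 10.1 FPKM in wild type and 9.91, 10.3 and 12.3 in knockout. Its fold change was 0.12, and 0.03 without knockout library 3. The ratio of Ulk2 to Ulk1 was 1.27 ± 0.0557 for wild type against 1.35 ± 0.0515 for knockout (SD, n = 3 per genotype), with an exact two-sided permutation p of 0.2, where 0.1 is the smallest that 3 against 3 allows. Atg101, Rb1cc1 and Ulk3 had log2 fold changes of 0.01, 0.07 and -0.08, all with overlapping groups. A gene for another relative, Ulk4, was listed for this role and was not analysed here.

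The class III phosphatidylinositol 3-kinase complexes contain the lipid kinase PIK3C3 (VPS34), its regulatory subunit PIK3R4 and BECN1, together with either ATG14, for autophagosome formation, or UVRAG, for endosomal traffic. AMBRA1 ties BECN1 to the ULK1 complex. Becn1 (ENSMUSG00000035086.13, chromosome 11, 101285952 to 101302286, mm10) stood at 14.7, 13.1 and 14.8 FPKM across wild type and 11.8, 7.84 and 12.4 across knockout. All knockout values were below all wild type values, and knockout library 2 lay lowest. Means were 14.2 ± 0.958 and 10.7 ± 2.49 FPKM (SD, n = 3 per genotype), and the fitted log2 change was -0.40 ± 0.17 (SE, limma adjusted p = 0.592). Without knockout library 3 the change was -0.51, and without knockout library 2 it was -0.21. Of the 31-base words in its GENCODE transcripts, 40.0% also occur in transcripts of other genes, 39.6% in those of Cntd1. Cntd1 is not among the genes of the deposited table, and how far the values of Becn1 are affected is uncertain.

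Pik3c3 pointed the other way in its values. It stood at 5.50, 5.70 and 5.35 FPKM across wild type and 5.85, 6.23 and 7.59 across knockout, without overlap and highest in knockout library 3. The log2 fold change was 0.21 ± 0.11 (SE, limma adjusted p = 0.613), and 0.11 without that library. Pik3r4 (0.06) and Ambra1 (-0.02) had small fold changes, and Atg14 had 0.20 with overlapping groups. Uvrag split into high and low libraries within each genotype, with 4.78, 2.49 and 1.99 FPKM in wild type and 1.74, 4.44 and 4.66 in knockout. Its 95% interval on the log2 scale ran from -0.69 to 1.01, the widest of the 41 members, so a change of either sign was not detectable here. The fold change turned from 0.16 to -0.02 without knockout library 3.

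Membrane is brought in by vesicles carrying ATG9A, lipid is moved by the transfer proteins ATG2A and ATG2B, and WIPI1 and WIPI2 read the lipid that PIK3C3 makes. Of these 5 genes 3 were higher and 2 lower in the knockout, and none had groups without overlap. Atg9a stood at 8.02, 7.92 and 8.42 FPKM across wild type and 8.06, 5.98 and 7.45 across knockout, with knockout library 2 lowest. Its log2 fold change was -0.17 ± 0.12 (SE, limma adjusted p = 0.670), and -0.06 without knockout library 2. It shares 32.4% of its 31-base words with other genes and overlaps Ankzf1 on the opposite strand. Wipi1 stood at 6.64, 7.04 and 7.69 FPKM across wild type and 7.26, 7.65 and 9.62 across knockout, where only knockout library 3 lay above all wild type values. The fold change of Wipi1 was 0.17, and 0.06 without that library. Wipi2, Atg2a and Atg2b had fold changes of 0.09, 0.03 and -0.02.

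The conjugation enzymes join ATG12 to ATG5 and ATG8 proteins to lipid. ATG7 is the activating enzyme of both reactions, ATG3 and ATG10 are the transfer enzymes, and ATG16L1 places the ATG12 and ATG5 pair on the membrane. Here 2 of 7 genes were higher in the knockout and 5 were lower, with a single gene whose groups were separate. Without knockout library 3, 4 of the 7 were higher. That gene was Atg7 (ENSMUSG00000030314.16, chromosome 6, 114643097 to 114860614), at 5.25, 5.06 and 5.59 FPKM across wild type and 4.87, 3.38 and 3.13 across knockout. Knockout library 1 lay just under the lowest wild type value, and knockout libraries 2 and 3 lay well under it. Means were 5.30 ± 0.270 and 3.8 ± 0.942 FPKM (SD, n = 3 per genotype), and the fitted log2 change was -0.41 ± 0.15 (SE, limma adjusted p = 0.592), with a 95% interval from -0.77 to -0.05. The change was -0.31 without knockout library 3 and -0.57 without knockout library 1.

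Atg10 stood at 6.24, 6.18 and 5.96 FPKM across wild type and 5.85, 7.30 and 7.52 across knockout, so its knockout values lay on both sides of the wild type values. The fold change of Atg10 was 0.14, with 0.08 without knockout library 3 and 0.24 without knockout library 1. Atg3, Atg5 and Atg12, the most abundant of the group at means of 20.6, 18.9 and 26.5 FPKM in wild type, had fold changes between -0.01 and 0.02. Their 95% intervals all lay within -0.24 and 0.24 on the log2 scale. Atg16l1 had a fold change of -0.07, and 0.02 without knockout library 3. Atg16l2, a less studied relative of it, was the member of lowest level at 0.713 ± 0.200 and 0.686 ± 0.131 FPKM (SD, n = 3 per genotype).

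TFEB and TFE3 are members, and factors of their family bind an E-box with the letters CACGTG, which reads the same on both strands. That motif was searched in the 250 bases before the start of each gene in the RefSeq promoter table (GRCm38.p6), which held 34 of the 41 symbols. It was present for 3 of the 34 (8.82%) and for 6.86% of the 27025 symbols in the table. All 3 were conjugation genes, Atg3, Atg5 and Atg7, so their stretches are shown here, 5′ to 3′ on the plus strand, with the motif in capitals and up to 24 bases on either side. A match is a description of these letters and not a site of binding.
Atg3, chr16:45158711-45158787: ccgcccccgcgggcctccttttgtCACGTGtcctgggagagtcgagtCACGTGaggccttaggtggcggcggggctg
Atg5, chr10:44268301-44268338: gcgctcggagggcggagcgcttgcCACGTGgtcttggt
Atg7, chr6:114670940-114670993: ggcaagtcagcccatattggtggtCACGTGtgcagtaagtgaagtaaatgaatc
The Atg3 stretch holds the motif at 94 and again at 71 bases before the start, Atg5 at 14 and Atg7 at 132. The Atg7 window precedes a RefSeq start that lies inside the GENCODE gene. These 3 genes did not share a pattern over the libraries, with fold changes of 0.00, 0.02 and -0.41. The core of the antioxidant response element, TGACNNNGC on either strand, was present for 3 of the 34 (Atg13, Tax1bp1 and Ulk2) and for 11.5% of all symbols. The forkhead element GTAAACA on either strand was present for 0 of the 34 and 3.54% of all symbols.

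ATG4 proteases trim newly made ATG8 proteins and later free them from lipid. Of the 4 protease genes, 2 were higher and 2 lower in the knockout, and Atg4a and Atg4b had groups without overlap. Atg4a (ENSMUSG00000079418.3, chromosome X, 140956907 to 141164270) had the smallest p of all 41 members. It stood at 13.4, 15.9 and 13.8 FPKM across wild type and 10.4, 12.2 and 11.7 across knockout. All knockout values lay below all wild type values, and knockout library 3 was not the extreme. Means were 14.4 ± 1.32 and 11.5 ± 0.922 FPKM (SD, n = 3 per genotype), and the fitted log2 change was -0.30 ± 0.11 (SE, limma adjusted p = 0.592), or 1.23-fold lower on the log2(FPKM + 1) scale. Leaving out each library in turn gave -0.35 to -0.23.

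Reads of Atg4a cannot be assigned to it with certainty. Atg4a-ps (ENSMUSG00000087119.4, chromosome 3, 103643954 to 103646068) is a copy in 1 exon, against 13 exons in the Atg4a transcript compared, and GENCODE lists it as protein coding. Of 1188 aligned coding bases 1181 are identical (99.4%), and 60.8% of the 31-base words of Atg4a occur in transcripts of Atg4a-ps. The pair is shown over bases 91 to 180 of the coding sequence (GENCODE M21), counted from the start codon, the 90-base stretch with the most differences among those that start on a codon, with the 3 differing bases in capitals.
Atg4a: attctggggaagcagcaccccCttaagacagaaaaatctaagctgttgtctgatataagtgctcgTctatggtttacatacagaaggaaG
Atg4a-ps: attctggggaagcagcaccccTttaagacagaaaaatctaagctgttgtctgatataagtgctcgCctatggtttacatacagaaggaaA
The values of Atg4a-ps had the same order of genotypes, with 1.27, 1.5 and 1.24 FPKM in wild type and 1.12, 0.967 and 0.995 in knockout. Summed, the pair came to 15.7 ± 1.46 FPKM for wild type against 12.5 ± 0.843 for knockout (SD, n = 3 per genotype). Neither gene overlapped between the genotypes, so their sum, most of it Atg4a, could not overlap either and is no separate result. The labels do not say how reads were divided between the copies.

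Atg4b, the protease with the broadest action on ATG8 proteins, stood at 4.75, 4.56 and 4.48 FPKM across wild type and 5.01, 4.79 and 5.34 across knockout. Its groups were separated by a small gap, and the log2 fold change was 0.11 ± 0.09 (SE, limma adjusted p = 0.700). Atg4c and Atg4d had fold changes of 0.04 and -0.06 with overlapping groups, and both were negative without knockout library 3 (-0.01 and -0.15). Atg4d overlaps Kri1 on the opposite strand and shares 16.5% of its 31-base words with it. Summed, the 4 proteases came to 40.2 ± 2.5 FPKM for wild type against 37.4 ± 3.04 for knockout (SD, n = 3 per genotype).

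The ATG8 family, whose proteins coat the growing membrane, was the most abundant group of the machinery. Its 5 genes held 38.3, 39.0 and 39.0% of the summed FPKM of the 41 members in wild type and 41.1, 40.7 and 44.7% in knockout. The 2 genotypes did not overlap in this share, and the difference of the means was 3.40 percentage points, or 2.11 without knockout library 3. The ATG8 sum itself did overlap, at 374, 345 and 327 FPKM in wild type and 365, 365 and 400 in knockout (exact two-sided permutation p = 0.3). The share also depends on Sqstm1, which held 27.5, 24.1 and 22.8% of the members' sum in wild type and 22.9, 22.4 and 15.8% in knockout. Gabarap was the largest component in the 3 wild type libraries and knockout library 1, and Gabarapl1 in knockout libraries 2 and 3. Map1lc3b, whose protein is the usual marker of autophagosomes, was the least abundant of the 5 in every library.

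Gabarapl1 (ENSMUSG00000030161.8, chromosome 6, 129533160 to 129542346) stood at 112, 104 and 90.7 FPKM across wild type and 114, 130.0 and 172 across knockout. Knockout library 1 was only just above wild type library 1, and knockout library 3 lay far above the rest. Means were 102 ± 10.8 and 139 ± 30.1 FPKM (SD, n = 3 per genotype), and the fitted log2 change was 0.42 ± 0.17 (SE, limma adjusted p = 0.592) with a 95% interval from 0.01 to 0.82. Without knockout library 3 the change was 0.25. As a share of the ATG8 sum it made up 30.0, 30.2 and 27.8% in wild type and 31.1, 35.7 and 43.0% in knockout. This share was formed after the values were seen, for the member with the highest fold change, so it describes the same values and is not a test. The difference of the mean shares was 7.25 percentage points, and 4.05 without knockout library 3. Of its 31-base words, 25.2% also occur in transcripts of 1700101I11Rik, which is not among the genes of the deposited table.

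The other 4 genes of the family were lower in the knockout by their fitted values, 3 of them by less than the SE of the fit. Gabarapl2 stood at 42.2, 41.7 and 39.9 FPKM across wild type and 38.1, 38.9 and 34.2 across knockout, without overlap and with a log2 fold change of -0.15 ± 0.09 (SE, limma adjusted p = 0.624), and -0.10 without knockout library 3. Gabarap stood at 142, 124 and 131 FPKM and at 141, 122 and 130.3, the same range in both genotypes. Its fold change was -0.01, and 0.03 when each library was rescaled to the same total. Map1lc3a stood at 64.1, 62.6 and 53.3 FPKM and at 59.8, 62.3 and 51.4, a fold change of -0.05, and 0.03 without knockout library 3. The groups of both genes overlapped almost fully. Map1lc3b stood at 12.8, 12.2 and 12.1 FPKM and at 12.4, 11.5 and 12.4, with a 95% interval from -0.23 to 0.17 on the log2 scale. Transcript levels say nothing of how much of these proteins was joined to lipid.

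**Figure D3:**
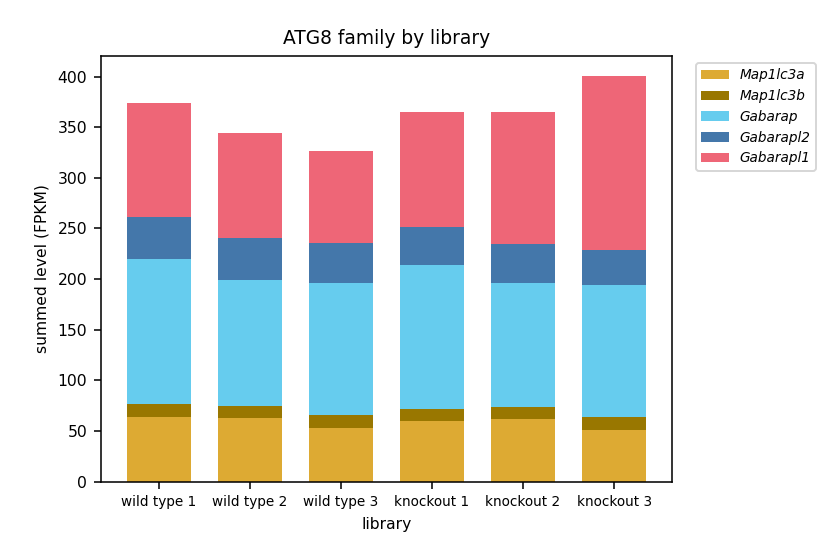
Summed FPKM of the 5 ATG8 family genes (y axis) in each library (x axis), stacked by gene. The Gabarapl1 segment takes 27.8 to 30.2% of the bar in wild type and 31.1 to 43.0% in knockout, and the whole bar ranges from 327 FPKM in wild type library 3 to 400.3 FPKM in knockout library 3.

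Cargo receptors carry ubiquitin-marked or other cargo to the ATG8 proteins. Of 5 genes 4 were higher in the knockout and 1, Sqstm1, lower, and none passed the threshold. Sqstm1 (ENSMUSG00000015837.15, chromosome 11, 50199366 to 50210827) had the highest mean of all 41 members and held rank 169 of the 12836 genes tested. It stood at 268, 213 and 191 FPKM across wild type and 203, 201 and 141 across knockout. Wild type library 1 was the highest, knockout library 3 the lowest, and the other 4 lay close together, so the genotypes overlapped. Means were 224 ± 39.9 and 182 ± 35.0 FPKM (SD, n = 3 per genotype), and the fitted log2 change was -0.30 ± 0.19 (SE, limma adjusted p = 0.640). It was -0.13 without knockout library 3 and -0.17 without wild type library 1. Sqstm1 overlaps Mrnip on the opposite strand, which shares 16.3% of its 31-base words.

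The remaining receptors differed in the other direction by their values. Tax1bp1, a receptor for ubiquitin-marked aggregates, stood at 34.3, 34.0 and 29.2 FPKM across wild type and 35.4, 38.9 and 39.5 across knockout, without overlap. Its log2 fold change was 0.22 ± 0.10 (SE, limma adjusted p = 0.595), and 0.19 without knockout library 3. Calcoco1, a receptor known from autophagy of the endoplasmic reticulum, stood at 8.86, 8.57 and 8.98 FPKM across wild type and 9.13, 10.2 and 12.7 across knockout. These groups did not overlap either, with knockout library 1 just above the highest wild type value, and the change of 0.24 became 0.12 without knockout library 3. Nbr1, which works with p62, had means of 26.3 ± 1.71 and 29.0 ± 3.04 FPKM (SD, n = 3 per genotype), a fold change of 0.13, and 0.05 without knockout library 3. Optn had means of 5.74 ± 0.232 and 6.00 ± 0.532. The ratio of Sqstm1 to Nbr1 was 10.3, 7.58 and 7.69 in wild type and 7.74, 7.07 and 4.39 in knockout, with overlapping groups.

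TFEB and TFE3 are transcription factors that switch on autophagy and lysosome genes when nutrient signalling is low. Tfeb stood at 5.12, 4.61 and 5.27 FPKM across wild type and 5.36, 4.84 and 3.92 across knockout. Tfe3 stood at 5.19, 4.13 and 4.69 FPKM and at 4.35, 4.64 and 2.99. For both genes knockout library 3 was the lowest and the other 5 libraries overlapped. The log2 fold changes were -0.08 ± 0.12 and -0.20 ± 0.16 (SE, limma adjusted p = 0.842 and 0.705), and 0.02 and -0.04 without that library. Without wild type library 1, Tfe3 was at -0.13. Tfeb was the only member on chromosome 17, where it lies 9.43 Mb from Tnfsf14, the gene targeted in the knockout. Activity of these factors is set mainly by where the protein is in the cell, which RNA levels do not show.

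**Figure D4:**
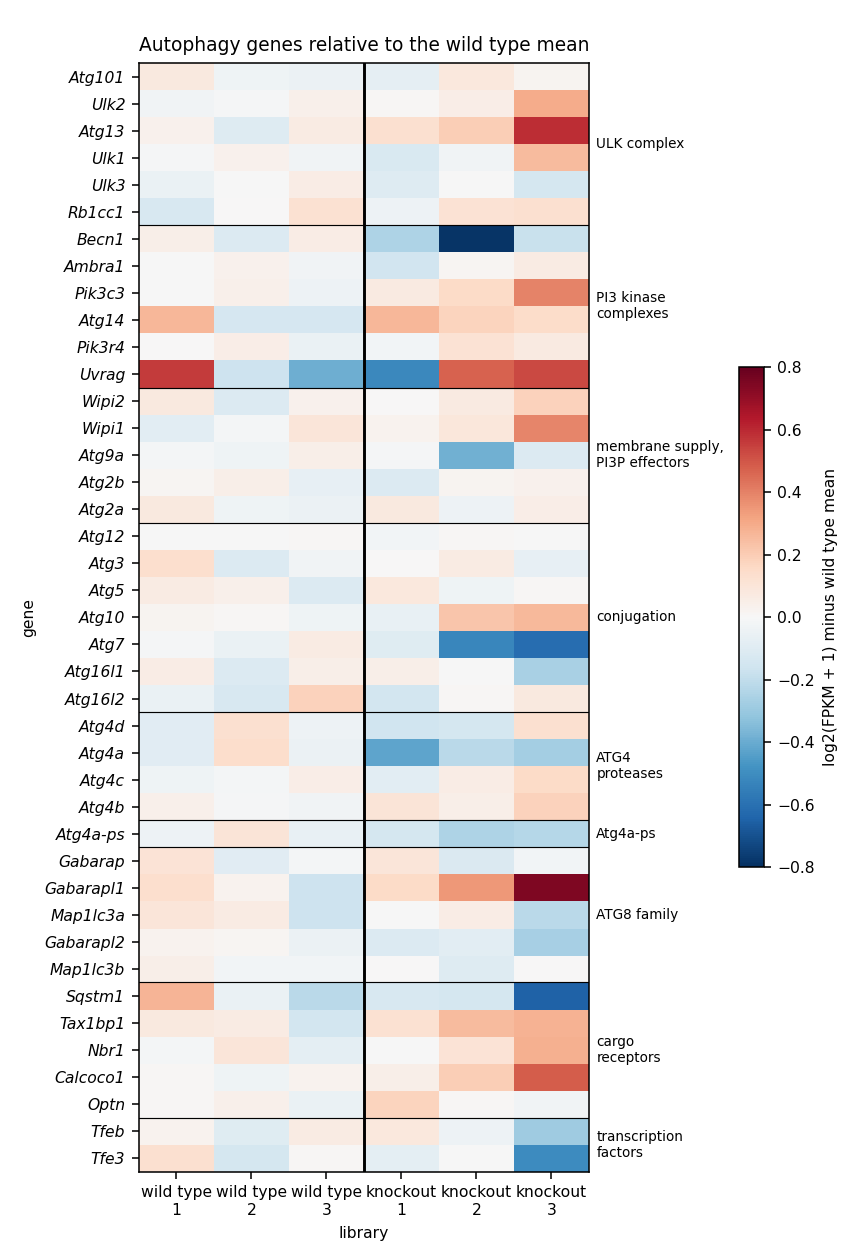
Difference of log2(FPKM + 1) from the wild type mean (colour, from -0.8 to 0.8) for 41 autophagy genes (rows, by role) in 6 libraries (columns). Knockout library 3 has the deepest colours in many rows, among them Gabarapl1, Atg13 and Sqstm1, and Becn1 has its deepest colour in knockout library 2.

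Other genes of the pathway, which the symbol rule leaves out, were taken from 7 lists. None of their 113 genes tested passed the threshold (limma), where 0.117% of all genes tested did. At an unadjusted p under 0.05 there were 4 higher and 6 lower (8.85%, against 8.08% of all genes tested). Their groups did not overlap in 21 (18.6%, against 16.6%), and the median log2 fold change was -0.04, against -0.01 over all genes tested. Of the 113 genes 50 were higher, and 38 without knockout library 3. Of 31 genes of mTORC1 and AMPK signalling, the switches that hold back or start ULK1, 11 were higher (8 without knockout library 3) and 20 lower. Prkab2, a beta subunit of AMPK, averaged 3.76 ± 0.610 and 2.33 ± 0.849 FPKM in wild type and knockout, and Lamtor5, of the lysosomal Ragulator complex, 82.9 ± 4.6 and 104 ± 13.6 (SD, n = 3 per genotype; limma adjusted p = 0.592 for both). Of 13 tested genes (14 listed) of fusion with the lysosome 4 were higher and 9 lower, among them Vps18, a tethering subunit, at 7.37 ± 0.715 and 6.11 ± 0.967 FPKM, and the fusion protein gene Ykt6 at 38.6 ± 1.80 and 34.4 ± 2.19. Of 15 genes of nucleation and membrane partners 8 were higher and 7 lower, with 7 higher without knockout library 3, and Trp53inp2 and the WIPI relative Wdr45 had the smallest p, with fold changes of 0.27 and 0.23.

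Among 18 other receptors of selective autophagy 11 were higher and 7 lower. Without knockout library 3 the majority turned, with 6 higher and a median fold change of -0.04 in place of 0.06. Fam134a, of a family of endoplasmic reticulum receptors, had the smallest p, at 22.7, 26.7 and 27.0 FPKM across wild type and 17.2, 18.2 and 19.4 across knockout. Pink1, the kinase that marks damaged mitochondria, stood at 50.3, 52.8 and 44.8 FPKM and at 59.8, 62.1 and 72.5. Both had groups without overlap, in opposite directions, and neither passed (limma adjusted p = 0.592 for both). Of 18 lysosome genes known as targets of TFEB 8 were higher (6 without knockout library 3) and 10 lower. Gla, a lysosomal galactosidase, averaged 3.99 ± 0.230 and 3.01 ± 0.323 FPKM, and Ctsf, a cathepsin, 9.77 ± 1.43 and 14.8 ± 5.26 (SD, n = 3 per genotype). Neither passed (limma adjusted p = 0.592 and 0.597). The genotypes overlapped for Ctsf, which stood at 10.3, 13.4 and 20.6 FPKM in knockout libraries 1, 2 and 3. Among 10 FoxO, ATF4 and MiT factors 6 were higher, with Foxo1, which can drive autophagy genes, at 6.37 ± 0.423 and 8.07 ± 0.383 FPKM (limma adjusted p = 0.592), and the stress factor Ddit3 at 9.37 ± 1.16 and 11.4 ± 1.93. Without knockout library 3, 4 of these 10 were higher, and the median fold change of the list was -0.01 in place of 0.05.

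Sums of 4 lists of cell markers also stood apart in knockout library 3. That library held the highest or the lowest value in 24 of the 41 members, as it did in 60.1% of all genes tested. The 8 proximal tubule markers were all higher in the knockout, none past the threshold, and their sum ranged from 660.0 to 794 FPKM in wild type and from 972 to 1779 FPKM in knockout, highest in library 3. The 10 injured tubule markers were higher in 1 case and lower in 9, with 3 higher without knockout library 3, and had sums of 6057 to 6733 FPKM in wild type and 6263, 5094 and 1795 FPKM in knockout libraries 1, 2 and 3. The 6 neutrophil markers were all lower, also without knockout library 3, with sums of 63.1 to 95.5 FPKM in wild type and 20.6 to 65.5 in knockout. The 8 collecting duct markers were higher in 6 cases, and in 2 without knockout library 3. They summed to 108 to 181 FPKM in wild type and to 101, 155 and 465 FPKM in knockout libraries 1, 2 and 3. The other lists tested did not stand far apart in knockout library 3. Its sums were 79.3 FPKM for monocyte and macrophage, 82.4 for podocyte and 838 for thick ascending limb and distal tubule markers. Endothelial markers summed to 81.1 and fibroblast and smooth muscle markers to 119.9. Across the other libraries these sums ran from 56.2 to 156, 81.4 to 108, 444 to 847, 55.2 to 77.5 and 121 to 242 FPKM. Gabarapl1 was highest and Sqstm1 lowest in the library where the proximal tubule sum was highest and the injury sum lowest. In bulk tissue, fewer cells of a type and less RNA per cell cannot be told apart, and the part of these cell markers in the members' values was not tested. No marker of the 4 lists that stood apart was missing from the genes tested.

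The 8 listed genes of the NRF2 pathway, which also controls Sqstm1, were lower in 6 cases and higher in 2. Their sum was 945, 947 and 723 FPKM in wild type and 838, 627 and 413 in knockout, also lowest in knockout library 3. Srxn1, which repairs oxidised peroxiredoxins, stood at 188, 252 and 135 FPKM and at 142, 88.7 and 36.7. Hmox1, which breaks down heme, stood at 170, 154 and 134 FPKM and at 153, 83.2 and 27.6. The threshold was met by neither (limma adjusted p = 0.592 and 0.601), and the median fold change of the 8 genes was -0.29 with all libraries and -0.12 without knockout library 3.

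**Figure D5:**
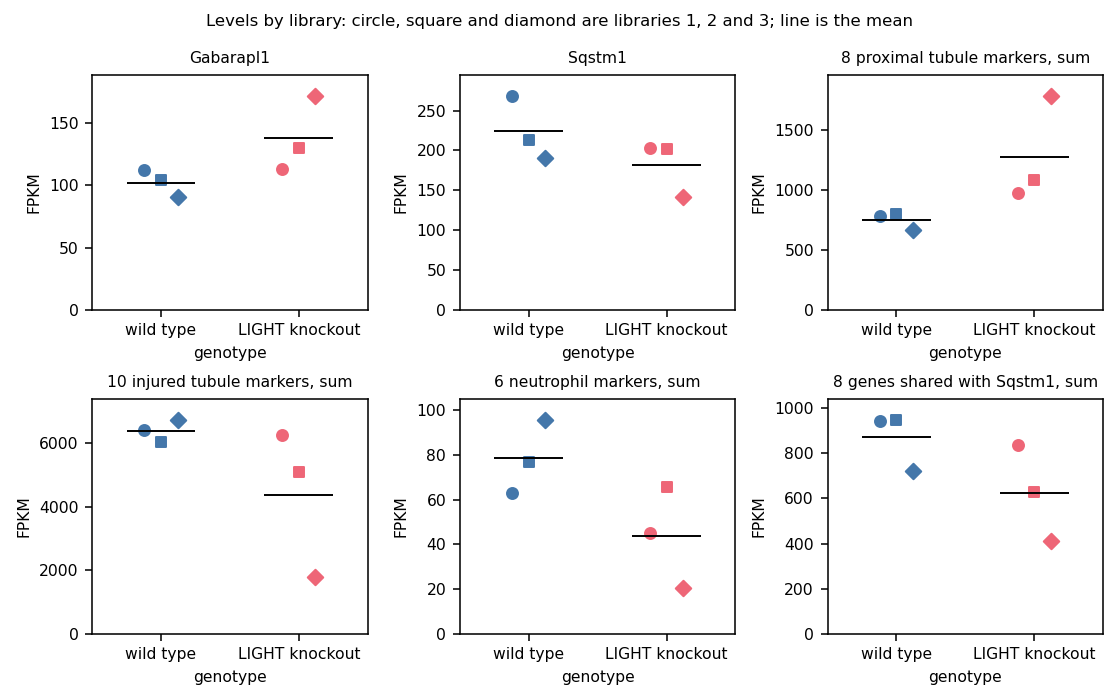
Levels in FPKM (y axes, from 0) of Gabarapl1, Sqstm1 and 4 summed gene lists by genotype (x axes), with circle, square and diamond for libraries 1, 2 and 3 and a line at the mean. Knockout library 3 is the highest for Gabarapl1 and the proximal tubule sum (1779 FPKM) and the lowest for the other 4 panels.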

How the data were processed

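Kidney RNA of 6 mouse libraries was analysed, with groups and replicate numbers from the sample titles. The authors deposited FPKM per gene. Per the submitters' processing notes, FastQC, HISAT2 and StringTie were used with mm10, and no versions are listed. The kit was stranded per the labels; annotation and strand setting are not given in the sources used here. Each library's own file was identical to the table of all libraries. In every row the higher group mean was at least 0.50043 FPKM. The deposited values are FPKM, and read depth is unknown. A gene was kept where its mean over the libraries reached 0.5 FPKM (12836, with 190 removed), put on the scale log2(FPKM + 1) and compared by limma 3.58.1 in R 4.3.3 with a mean-variance trend; tests were two-sided with Benjamini-Hochberg adjustment over all genes kept.

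The members, lists and tests were chosen with earlier results of these data known. Per-library values are given for members past the threshold, the 2 of smallest p in each role, the 5 of highest level, and Sqstm1, Map1lc3b, Becn1, Ulk1, Tfeb and Tfe3. In each of the other pathway lists the 2 genes of smallest p are named. The values of Uvrag and Atg12 by library, and the ratios, shares and sums, were added once values had been seen. Gene positions come from GENCODE M21, where 13005 identifiers matched. Of the role lists, 2 genes (Ulk4 and Atg9b) were not analysed here. No check of the genotypes on Tnfsf14 could be made, as that gene was not analysed here. For 4 listed genes the table uses older symbols.

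Before use, the procedure was tested on simulated data with known differences. Over 5 runs 69.6% of 2-fold and 90.4% of 4-fold changes were called, and 5.10% of calls were false. Changes as small as those of the members, at most 1.34-fold (Gabarapl1), were not simulated, nor was a library unlike the others. A member that was not called is therefore not shown to be unchanged. Alternatives were other pseudocounts, filters and scalings, other variance models, the replicate number as a block and each library left out.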

Additional observations from a re-analysis of the deposited data

How the results depend on the processing

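No member passed the adjusted threshold under any of the 19 alternatives; the smallest adjusted p of a member was 0.102, for Becn1 with library weights, where 9 members had an unadjusted p under 0.05. The number of members higher in the knockout (21) ranged from 19 without wild type library 3 to 27 after rescaling all libraries to a common total, where 55.2% of all genes were higher against 47.9% as deposited. The median member log2 fold change stayed between -0.01 and 0.05. The 11 members without overlap became 9 after rescaling all libraries to a common total, and leaving out 1 library gave 13 to 17, fewer libraries making overlap rarer. Over all genes the 15 calls became 52 with library weights, and leaving out 1 library gave 0 to 11, with 0 without wild type library 1, wild type library 3 or knockout library 2. With the replicate number as a block 0 genes were called, members included. Deviations of same-numbered libraries from their group means correlated between -0.13 and 0.15, and 1 of 3 wild type libraries correlated best with its own number. With so few libraries, and knockout library 3 unlike the rest, this check cannot settle whether the numbers pair them.

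Of the 22 members that the naming rule chose, 16 kept their sign under all alternatives. The others reversed as follows, the cause not tested. Gabarap was 0.027 after rescaling all libraries to a common total and 0.0069 after rescaling without mitochondrially encoded genes, and leaving out 1 library gave -0.068 to 0.041. Map1lc3b was 0.0066 after rescaling all libraries to a common total, and leaving out 1 library gave -0.049 to 0.0042. With library weights Tfe3 was 0.0012, Map1lc3a 0.0022 and Ulk1 -0.041. Leaving out 1 library gave -0.16 to 0.024 for Tfeb, -0.13 to 0.029 for Map1lc3a and -0.075 to 0.11 for Ulk1. Unknown depth limits the low members most, such as Atg16l2.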
